A study of Mus musculus with 28 samples.

Results

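The comparison described here set sciatic nerves of mice at postnatal day (P) 5 against those at P1, the days over which the first myelin sheaths thicken. It used 8 of the 28 libraries of a timeline of 7 stages, 4 at P1 and 4 at P5, chosen by their stage labels alone, and all 41605 genes of the deposited count table, of which 17700 were abundant enough to be tested. All animals were unperfused C57BL/6J wild type mice that carried no transgene and received no treatment. Each of the 8 libraries was made by poly-A selection from the sciatic nerves of 1 mouse. The outer sheaths of the nerve, the epineurium and the perineurium, were stripped off by hand before freezing, so that the RNA came mostly from the endoneurium, the compartment of axons and Schwann cells. The study describes 2 male and 2 female mice per stage, but the labels do not give the sex of a single library, and sex was not used. No label gives a dissection or sequencing batch, so that stage and any such batch cannot be told apart.

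Schwann cells are the glia of peripheral nerve. Before and around birth immature Schwann cells divide and separate the larger axons out of mixed bundles, a step called radial sorting, and a cell that has taken up a single large axon leaves the cell cycle and wraps it in myelin. Myelin is membrane rich in cholesterol, galactolipids and very long chain fatty acids, compacted by a few abundant proteins, and the Schwann cell makes most of these lipids itself. Small axons stay together in Remak bundles, held by Schwann cells that do not myelinate. The nerve also holds fibroblasts, endothelial cells, pericytes and macrophages, and a bulk library mixes the RNA of all of them. In such libraries fewer cells of a type and less RNA per cell cannot be told apart.

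Total counts ran from 23114114 to 30953982 in the P1 libraries and from 25311104 to 37662780 in the P5 libraries. P1 replicate 1 stood apart from the other P1 libraries: its median absolute log2 distance from the mean of the others was 0.259, against 0.115 to 0.157 in the other 3 and 0.096 to 0.146 at P5. The deviations of its genes followed the GC content of the transcript, with a slope of -0.42 log2 units per 10 percentage points of GC that took up 63.7% of their variance. In the other 7 libraries this slope lay between -0.16 and 0.19. It took up from 2% of the variance in P5 replicate 2 to 52.3% in P1 replicate 4. Calls that were missed without this library are said to be so beside the gene or its list. The listed Schwann cell markers, among them Sox10 and Erbb3, were present in every library, and their summed level was 4596 to 5076 CPM at P1 and 5260 to 5729 CPM at P5. Levels are given in CPM, read counts scaled to a common library size after TMM normalization, which sets the typical gene to no change. They are not divided by transcript length and are not compared between genes. Values per library are listed in the order of replicates 1 to 4, means are given ± SD with n = 4 per stage, and changes are log2 fold changes of P5 over P1 ± SE from the edgeR quasi-likelihood test, with p-values adjusted over the 17700 genes. A gene is said to have risen or fallen when its adjusted p was under 0.05, and is called when its change was also at least 2-fold.

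Between P1 and P5 1033 genes were called, 717 higher and 316 lower at P5. The genes called higher were 4.05% of those tested and the genes called lower were 1.79%. At any size of change 1816 genes (10.3%) rose and 1298 genes (7.33%) fell. Large changes were mostly rises, with 192 genes called at least 4-fold higher and 71 called at least 4-fold lower, and with 78 and 21 genes at 8-fold. The 4 P1 and the 4 P5 libraries did not overlap for 30.4% of all genes tested and for 940 of the 1033 called genes (91%), which the test itself picks for their separation. The balance of rises and falls depended on the scaling. TMM put the median change of all genes at 0.00, and 69.4% of called genes were higher at P5, whereas scaling by library size alone put the median at -0.19 and called 493 genes higher and 609 lower (44.7% higher). Changes below are therefore relative to the typical gene, and the ranges given below for the lists take in that scaling. Without P1 replicate 1 the count of called genes was 866, of which 613 were higher and 253 lower at P5. The called genes differed in base composition, with a median transcript GC content of 51.7% for those higher at P5 and 47.1% for those lower, against 49.5% for all genes tested. After removal of a GC trend from every library 810 genes were called higher and 358 lower. That trend was fitted to the deviation of each library from its stage mean. A GC difference between P1 and P5 therefore stayed in, and its part in the calls was not tested. The share of genes that passed at any size moved more with the fit. It was 13.9% higher and 13.1% lower with the P1 and P5 libraries alone, 16.7% and 15.1% without the libraries of embryonic day (E) 13, 16.8% and 13.1% after the GC trend was removed, 18.8% and 19% with limma-voom, and 6.52% and 18.2% with library size scaling. The numbers in square brackets after a count of list members are its lowest and highest value under the 18 alternative settings, given where these differ. Such counts are to be read against the 10.3% of all genes that rose and the 7.33% that fell. A count under another setting is to be read against the shares of that setting.

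**Figure D1:**
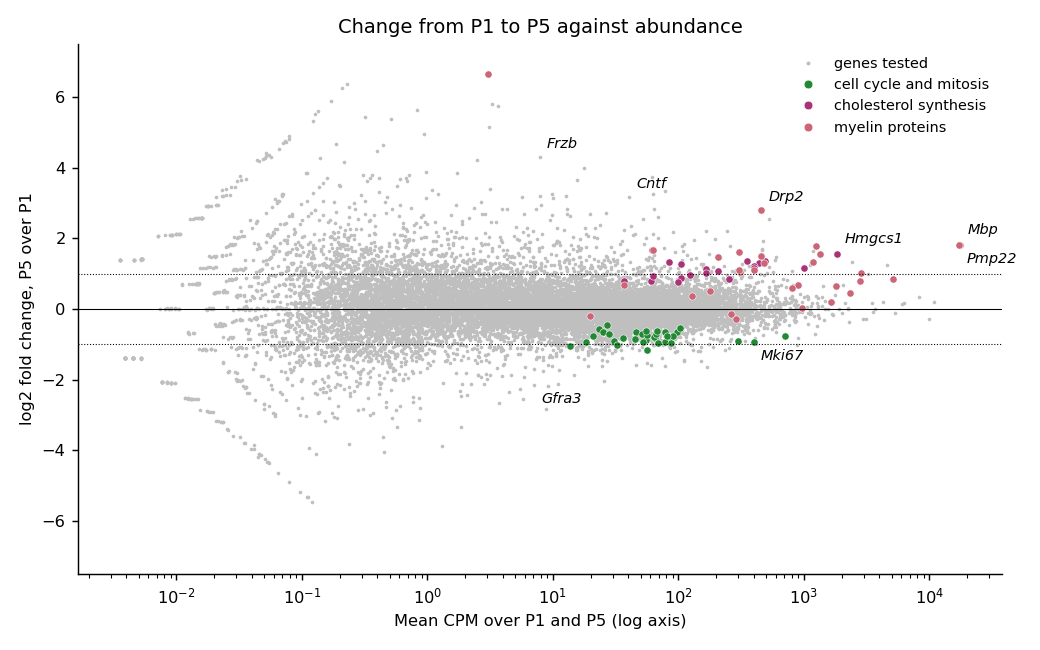
Log2 fold change of P5 over P1 (vertical axis) against the mean CPM over both stages (horizontal, log axis) for the genes tested, with dotted lines at 2-fold. The 20 cholesterol synthesis genes lie above 0, the 34 cell cycle genes lie below 0, and the myelin protein genes reach from -0.28 to 6.66, with Mbp and Pmp22 at the far right.

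The largest rises were taken by fold change from called genes with at least 10 CPM in the higher stage and no overlap between the libraries of the stages, and their per-library values are given as a description. They were led by Frzb, which encodes a secreted Wnt antagonist. Its level was 0.656, 1.08, 0.62 and 0.713 CPM at P1 and 15.9, 15.7, 13.4 and 14.6 CPM at P5, a change of 4.29 ± 0.21, adjusted p = 3.8e-14. Fam178b, a gene without a described role in nerve, was at 5.50, 8.66, 8.31 and 11.8 CPM at P1 and 118, 105, 128 and 105 CPM at P5 (3.73). Sptb, which encodes the beta-I chain of the spectrin skeleton under the plasma membrane, was at 9.14, 17.3, 12.1 and 17.9 CPM at P1 and 151, 137, 153 and 134 CPM at P5 (3.35), and Sptbn5, which encodes another beta spectrin, rose by 3.20. That P1 and P5 libraries do not overlap in these genes follows from the rule. The other rises of this group were Chdh, a choline dehydrogenase (3.99), H2-DMb1, which helps to load peptides on class II antigen molecules (3.65), Col23a1, a transmembrane collagen (3.26), Lrtm2, a leucine-rich repeat membrane protein (3.25), Spint1, an inhibitor of serine proteases (3.21), and Cdh3, a classical cadherin (3.18). Exons of Chdh overlap those of Cacna1d on the other strand and exons of Sptbn5 those of Pla2g4b, so that their reads can be told apart only if the counting used the strand, which the sources used here do not state. H2-DMb1 was at 2.29 ± 0.713 CPM at P1 and 29 ± 3.86 CPM at P5.

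The 10 largest falls by the same rule were smaller in size, from -2.17 to -1.62, and larger falls of less abundant genes are left out of them. Enpep, which encodes aminopeptidase A, came first and was at 22.6, 11.2, 13.3 and 12.5 CPM at P1 and 3.54, 2.81, 4.15 and 2.75 CPM at P5 (-2.17), and P1 replicate 1 was its highest library. Gfra3, the receptor for artemin, was at 8.45, 11.4, 15.4 and 10.7 CPM at P1 and 2.50, 2.20, 3.68 and 1.91 CPM at P5 (-2.16). Gabrb2, a subunit of the GABA-A receptor, was at 21.2, 18.2, 17.2 and 14.4 CPM at P1 and 3.58, 3.92, 4.62 and 4.33 CPM at P5 (-2.11). Here too the lack of overlap was required by the rule. St8sia2, which adds polysialic acid chains to the adhesion molecule encoded by Ncam1, fell by 1.62 on the log2 scale, and Ncam1 itself changed by -0.85. Other falls of this group were Fgl2, a fibrinogen-like protein (-2.05), Car10, a carbonic anhydrase-related protein (-1.86), Olfm2, an olfactomedin (-1.75), the homeobox gene Hoxb9 (-1.73) and Anks1b, a scaffold protein (-1.69).

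**Figure D2:**
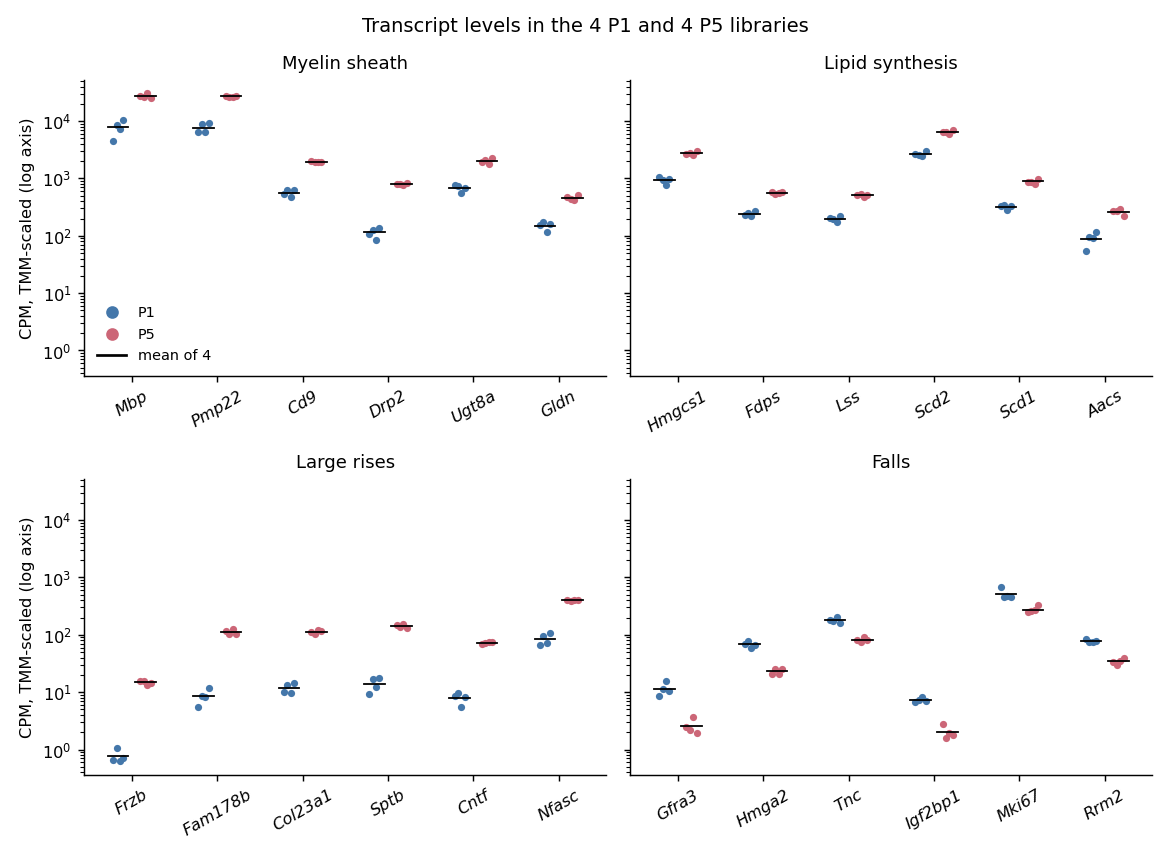
CPM (log axis) of 24 genes in each of the 4 P1 (blue) and 4 P5 (red) libraries, with the mean of each stage as a black line, in panels for myelin sheath, lipid synthesis, large rises and falls. In no gene shown do the P1 and P5 points overlap, which the rule required of Frzb, Fam178b, Col23a1, Sptb and Gfra3. The other genes were picked for the figure. The P5 points of Pmp22 and Cd9 lie closer together than the P1 points.

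Of 30 genes for myelin proteins and enzymes of myelin lipids, 21 [20 to 26] rose, 16 [12 to 16] of them called, and none [0 to 1] fell, with a median change of 1.03 against 0.00 for all genes tested. Mbp encodes myelin basic protein, which holds the inner faces of the membrane together, and was counted at 4418, 8607, 7405 and 10578 CPM at P1 and 27475, 26356, 30629 and 25280 CPM at P5 (1.82 ± 0.20, adjusted p = 2.1e-07). Pmp22, which encodes peripheral myelin protein 22, a membrane protein of compact myelin, was at 6339, 8753, 6498 and 9157 CPM at P1 and 27020, 26602, 26797 and 27428 CPM at P5 (1.81 ± 0.14, adjusted p = 1.4e-10). The P1 libraries spread over a 2.39-fold range for Mbp, with P1 replicate 1 lowest, while the P5 libraries lay close together. Drp2, which encodes a dystrophin-related protein of the plaques where the Schwann cell surface is anchored to its basal lamina, rose by the largest fold after Mobp and was at 108, 127, 83.7 and 138 CPM at P1 and 807, 797, 759 and 847 CPM at P5 (2.81 ± 0.14, adjusted p = 3.8e-14). Prx encodes periaxin, the partner of Drp2 in the same plaques. Its level was 2266, 4142, 3835 and 4539 CPM at P1 and 6769, 6580, 7269 and 6044 CPM at P5, a smaller change of 0.85 ± 0.21, adjusted p = 0.004. Cd9, a tetraspanin, rose by 1.78 ± 0.12, adjusted p = 3.4e-11 and Ncmap, which encodes a noncompact myelin-associated protein, by 1.51 ± 0.17, adjusted p = 3.4e-07.

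Further called rises were Gjb1, the connexin of the myelin incisures (1.68 ± 0.18, adjusted p = 9.5e-08), Gldn, which encodes gliomedin, a Schwann cell ligand that gathers sodium channels at the node (1.61 ± 0.16, adjusted p = 3.1e-08), and Ugt8a, the enzyme that makes galactosylceramide (1.55 ± 0.19, adjusted p = 9.3e-07). Pmp2, a fatty acid binding protein of myelin, changed by 1.3, Slc36a2 by 1.46, the plasmolipin gene Pllp by 1.31, Fa2h, which 2-hydroxylates the fatty acids of myelin lipids, by 1.10, the deacetylase gene Sirt2 by 1.10, Dusp15 by 1.04 and Mal, a proteolipid of lipid rafts, by 1.02. Mobp, best known from central myelin, had 0 to 3 counts in the P1 libraries and 137 to 198 counts in the P5 libraries, so that it was at least 48-fold higher at P5 when set against 3 counts in the shallowest P1 library. Its exons overlap those of Gm38642 on the same strand. Cnp (0.78), Cryab (0.69), Cd59a (0.67) and the claudin gene Cldn19 (0.65) rose by less than 2-fold, and Cryab was missed without P1 replicate 1 (0.60, adjusted p = 0.071) and with library size scaling.

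The other 9 members did not pass. Mag, the adhesion molecule of the membrane next to the axon, was at 422, 694, 658 and 778 CPM at P1 and 977, 970, 1046 and 884 CPM at P5 (0.60 ± 0.23, adjusted p = 0.079). Its P1 and P5 libraries did not overlap, the test was missed, and Mag passed in 5 of the 18 alternative settings, for example with the P1 and P5 libraries alone (0.60, adjusted p = 0.015). Gal3st1 (0.50), Cmtm5 (0.37), Gjc3 (0.19), Cadm4 (0.04), Kcna1 (-0.14), Tspan2 (-0.19) and Mpp6 (-0.28) had changes between -0.28 and 0.50. With library size scaling 20 of the 30 rose and none fell, and without P1 replicate 1 also 20.

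Genes for the node of Ranvier, the paranode and adhesion along the internode moved both ways, with 7 [6 to 12] of 24 higher and 4 [2 to 8] lower (median 0.12). Nfasc, which encodes the neurofascins of node and paranode, was at 67.5, 96.3, 71.9 and 107 CPM at P1 and 407, 389, 399 and 405 CPM at P5 (2.22 ± 0.13, adjusted p = 1.9e-12), and Cadm3, an adhesion molecule of the axon surface, at 50, 62.0, 50.8 and 75.4 CPM at P1 and 288, 253, 272 and 285 CPM at P5 (2.20 ± 0.13, adjusted p = 1.5e-12). These 2 and Gldn were the called rises. Part of Cadm3 overlaps Ackr1 on the same strand. Epb41l3, which encodes the paranodal scaffold protein 4.1B, fell by 0.91 on the log2 scale and the syndecan gene Sdc4 by 0.61. Without P1 replicate 1 or without P5 replicate 3, 2 members fell in place of 4.

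All 20 [19 to 20] genes of cholesterol synthesis rose, 13 [8 to 14] of them called, with a median change of 1.14. Hmgcs1, whose enzyme makes HMG-CoA, was at 1042, 940, 782 and 969 CPM at P1 and 2718, 2791, 2568 and 2980 CPM at P5 (1.57 ± 0.20, adjusted p = 2.2e-06). Lss, which closes the sterol rings, was at 202, 197, 174 and 219 CPM at P1 and 521, 542, 470 and 513 CPM at P5 (1.37 ± 0.11, adjusted p = 8.8e-10), and every P5 library exceeded every P1 library for both. Other called members were Tm7sf2 (1.67), Mvd (1.34), Cyp51 (1.29), Idi1 (1.28), Fdps (1.22), Msmo1 (1.15), Nsdhl (1.12), Fdft1 (1.07) and Sc5d (1.02). The smaller rises were Acat2 (0.96), Pmvk (0.93), Dhcr7 (0.88), Sqle (0.86), Mvk (0.80), Ebp (0.78) and Hsd17b7 (0.76). With library size scaling 19 of the 20 rose and 8 were called, and without P1 replicate 1 19 rose. Mvk was missed with library size scaling, without a low-count filter and without any 1 of P1 replicates 1, 2 and 3 and P5 replicates 1, 2 and 3 (0.59, adjusted p = 0.150 without P1 replicate 1).

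The transcription factors of the SREBP family switch on these genes when cells are short of sterols, often together with the factor NF-Y, which binds the CCAAT box. The 250 bases before the start of 3 of the genes are shown because every member of the list rose. They are RefSeq sequences (GRCm38.p6) read on the strand of the gene, 5′ to 3′, with each CCAAT (either strand) and each TCACNCCAC, a form of the sterol regulatory element (either strand), in capitals. Hmgcs1 (chr13:119690101-119690350, plus strand), Mvd (chr8:122443423-122443672, minus strand) and Ebp (chrX:8193513-8193762, minus strand) follow.
Hmgcs1: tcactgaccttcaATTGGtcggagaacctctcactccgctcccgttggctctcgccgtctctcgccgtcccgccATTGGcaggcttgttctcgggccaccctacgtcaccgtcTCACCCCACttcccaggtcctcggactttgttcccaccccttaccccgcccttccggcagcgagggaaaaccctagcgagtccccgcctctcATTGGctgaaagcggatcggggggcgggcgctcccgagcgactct
Mvd: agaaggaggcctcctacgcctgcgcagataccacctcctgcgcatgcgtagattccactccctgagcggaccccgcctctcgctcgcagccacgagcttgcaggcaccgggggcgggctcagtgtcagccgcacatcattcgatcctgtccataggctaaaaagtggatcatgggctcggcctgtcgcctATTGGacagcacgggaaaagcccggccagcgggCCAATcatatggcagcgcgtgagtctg
Ebp: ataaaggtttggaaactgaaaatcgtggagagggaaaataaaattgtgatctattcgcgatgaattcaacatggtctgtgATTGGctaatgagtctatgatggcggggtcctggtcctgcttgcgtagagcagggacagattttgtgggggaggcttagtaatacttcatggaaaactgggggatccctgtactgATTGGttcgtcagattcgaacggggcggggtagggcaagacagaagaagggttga
The sterol element stood 137 to 129 bases before the start of Hmgcs1. Windows were at hand for 15 of the 20 cholesterol genes, and 14 of the 15 genes (93.3%) held a CCAAT in at least 1 window, against 39.9% of the 12514 tested genes with a window. TCACNCCAC was found in 1 of the 15 (6.67%) and in 1.26% of the tested genes. A match is a description of the letters and not evidence of binding.

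Genes of sterol regulation, uptake and efflux rose in 11 [6 to 14] of 19 cases and fell in none [0 to 1] (median 0.47), and with library size scaling 6 rose. Abcg1, which exports cholesterol, was at 1.09, 1.87, 2.33 and 1.98 CPM at P1 and 13, 14.2, 12.4 and 12.6 CPM at P5 (2.84 ± 0.19, adjusted p = 1.9e-11), and Lpl, which releases fatty acids from lipoproteins, at 4.04, 5.24, 11.4 and 6.85 CPM at P1 and 22.5, 24.1, 40.1 and 32.3 CPM at P5 (2.11 ± 0.33, adjusted p = 3.2e-05). The stages did not overlap in either. Among 36 genes of fatty acid and glycerolipid synthesis 17 [13 to 21] rose and 1 [1 to 3] fell (median 0.44), with 3 falls under library size scaling. Scd2, a stearoyl-CoA desaturase, was at 2691, 2613, 2488 and 2985 CPM at P1 and 6405, 6398, 6064 and 6953 CPM at P5 (1.26 ± 0.09, adjusted p = 4.6e-11). Scd1, a related desaturase, rose by 1.47 ± 0.12, adjusted p = 1.2e-09, and Aacs, which returns ketone bodies to lipid synthesis as acetoacetyl-CoA, was at 54.8, 95.7, 92.1 and 115 CPM at P1 and 273, 269, 294 and 222 CPM at P5 (1.56 ± 0.22, adjusted p = 1.0e-05). Elovl2, an elongase, was the member that fell (-1.46 ± 0.36, adjusted p = 0.005). Sphingolipid and galactolipid genes rose in 10 [9 to 16] of 27 cases and fell in 1 [1 to 2] (median 0.44), with Ugt8a and Fa2h as the largest rises, and S1pr3, a receptor for sphingosine 1-phosphate, as the fall (-1.17). Adipocyte genes are expressed in fat that can cling to a nerve and include Lpl, so that they are given beside these lipid genes. Their summed level was 16.2 to 26.7 CPM at P1 and 36 to 87.9 CPM at P5, and 4 [1 to 6] of 11 tested members rose. The defining marker Adipoq was at 0.219, 0.0832, 0.146 and 0.0310 CPM at P1 and 0.50, 0.0286, 3.08 and 3.71 CPM at P5, and Plin1, the coat protein of fat droplets, had 0 to 1 counts at P1 and 0 to 66 at P5, at least 8.08-fold higher in the mean although the lowest P5 library had 0. The 4 rises became 1 without any of P1 replicates 1, 2 or 4 or P5 replicate 3, and 2 without P1 replicate 3 or P5 replicate 4. With all libraries the change of Adipoq was 3.87 (adjusted p = 0.028) and that of Plin1 5.38 (adjusted p = 0.039). Without P5 replicate 3 they were 3.50 (adjusted p = 0.077) and 4.08 (adjusted p = 0.199). Without P5 replicate 4 the change of Adipoq was 3.22 (adjusted p = 0.107). Adipoq was missed in 9 and Plin1 in 11 of the 18 alternative settings. The part of adipocytes in the lipid results was not tested.

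Of 22 transcription factors listed here as promoting myelination 2 [1 to 4] rose and 4 [2 to 8] fell, with a median of -0.03. Of all genes tested 10.3% rose and 7.33% fell. The 8 falls came with limma-voom, under which 19% of all genes fell. Egr2, the zinc finger factor required for myelin gene expression, was at 199, 291, 274 and 316 CPM at P1 and 272, 303, 284 and 299 CPM at P5 (0.10 ± 0.15, adjusted p = 0.719), and Sox10, required in Schwann cells at all steps, at 209, 382, 419 and 407 CPM at P1 and 404, 376, 393 and 294 CPM at P5 (0.05 ± 0.28, adjusted p = 0.940). Pou3f1, the factor of the promyelinating stage, was at 113, 145, 151 and 149 CPM at P1 and 115, 121, 101 and 98.8 CPM at P5 (-0.36 ± 0.20, adjusted p = 0.256), and its fall passed with the P1 and P5 libraries alone, library size scaling and limma-voom. The libraries of both stages overlapped in all 3, P1 replicate 1 was lowest for Egr2 and Sox10, and the small positive changes of these 2 turned negative with library size scaling and without P1 replicate 1. The rises were Nab1, which encodes a partner of Egr2 (0.97 ± 0.21, adjusted p = 0.002), and Maf, a regulator of cholesterol genes in Schwann cells (0.45), which was missed in 7 of the 18 alternative settings, 5 of them without 1 library. The falls were Etv5, an ETS factor downstream of growth factor signals (-1.17 ± 0.15, adjusted p = 1.9e-06), Rxrg (-0.85), Sox8 (-0.61) and Ctcf (-0.34). Sox8 was missed without any 1 of P1 replicates 1 and 3 and P5 replicates 2, 3 and 4, and Ctcf without P1 replicate 1 or P5 replicate 3, with changes of -0.49 (adjusted p = 0.165) and -0.26 (adjusted p = 0.094) without P1 replicate 1. Without P1 replicate 1 or without P5 replicate 3, 2 members fell in place of 4, and 1 rose in place of 2 with library size scaling and without P1 replicates 3 or 4 or P5 replicates 1, 2 or 4. The SREBP genes Srebf1 and Srebf2 had changes of 0.25 and 0.32 (adjusted p = 0.580 and 0.343). Changes of the members that did not pass ran from -0.38 for Tbx2 to 0.78 for Pparg, and took in Tead1 (-0.34), Pou3f2 (-0.27), Nab2 (-0.25), Zeb2 (-0.22), Yy1 (-0.05), Nfatc3 (-0.01), Nfatc4 (0.43), Ppara (0.28) and Nr1h2 (0.32).

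Genes listed here as negative regulators of myelination fell in 6 [5 to 10] of 22 cases and rose in 3 [2 to 5] (median -0.31). Of all genes tested 7.33% fell and 10.3% rose. Hmga2, a chromatin protein of fetal cells, was at 69.7, 77.6, 59.2 and 66.5 CPM at P1 and 20.6, 25.7, 20.5 and 25.3 CPM at P5 (-1.57 ± 0.17, adjusted p = 1.1e-07). Cdkn1c, which encodes the cell cycle inhibitor p57, was at 292, 359, 380 and 361 CPM at P1 and 152, 176, 169 and 151 CPM at P5 (-1.10 ± 0.19, adjusted p = 1.2e-04). Id2, an inhibitor of basic helix-loop-helix factors, was at 278, 298, 293 and 270 CPM at P1 and 156, 167, 152 and 146 CPM at P5 (-0.87 ± 0.12, adjusted p = 6.8e-06), and the P1 and P5 libraries of none of the 3 overlapped. Sox11 (-1.14), Hes1 (-0.80) and Egr3 (-0.68) also fell, of which Egr3 was missed without P1 replicate 3 or P5 replicate 3. Of the rises, Zbtb7b changed by 1.56 ± 0.25, adjusted p = 5.4e-05, Gpr37l1, a glial receptor, by 1.65 ± 0.18, adjusted p = 1.1e-07, and Jun, a factor of the repair Schwann cell, by 0.39 ± 0.13, adjusted p = 0.038. Jun was missed in 9 of the 18 alternative settings, among them library size scaling, the replicate block and without any 1 of P1 replicates 1 and 2 and P5 replicates 1, 2 and 3 (0.36, adjusted p = 0.103 without P1 replicate 1). Sox2 (-0.33), Notch1 (-0.37), Id4 (-0.30), Hey1 (-0.15), Sox4 (-0.13), Etv1 (-0.55), Egr1 (0.26), Snai2 (0.36), Id1 (0.57), Id3 (0.57), Hey2 (0.83), Pax3 (-1.01) and Tfap2a (-1.41) did not pass. Hey2 passed without P1 replicate 3 (adjusted p = 0.006), and its highest change under any alternative was 1.98. With library size scaling 10 members fell and 2 rose.

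Genes of immature and Remak Schwann cells fell in 9 [8 to 15] of 22 cases, 5 [4 to 7] of them called, and rose in 1 [1 to 2] (median -0.40). Ncam1, an adhesion molecule of cells that hold bundled axons, was at 243, 266, 283 and 259 CPM at P1 and 140, 146, 138 and 159 CPM at P5 (-0.85 ± 0.11, adjusted p = 3.5e-06). L1cam, a partner in the same adhesion, was at 140, 168, 149 and 159 CPM at P1 and 110, 105, 112 and 118 CPM at P5 (-0.47 ± 0.11, adjusted p = 0.003), and Ngfr, the low-affinity neurotrophin receptor, at 186, 230, 246 and 241 CPM at P1 and 183, 155, 176 and 160 CPM at P5 (-0.42 ± 0.15, adjusted p = 0.044). The groups did not overlap in any of the 3, although the change of Ngfr lay near the threshold and was missed without any of P1 replicates 2, 3 and 4 or any P5 replicate, at a change of -0.42 (adjusted p = 0.082) without P1 replicate 2. Among the called falls were Gfra3 and Gria2, a glutamate receptor subunit (-1.21 ± 0.29, adjusted p = 0.003), and Sema3b, a semaphorin, rose (0.85 ± 0.23, adjusted p = 0.009). Of the 12 general Schwann cell markers 2 [2 to 3] rose, Gpr37l1 and S100b, a calcium binding protein of glia (1.45 ± 0.13, adjusted p = 6.2e-09), and the median of the markers was -0.06. With library size scaling 5 of these markers fell.

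Cell cycle and mitosis genes fell in 32 [29 to 34] of 34 cases and rose in none, with a median of -0.78. The falls were mostly smaller than 2-fold, and 3 [2 to 15] were called. Mki67, the proliferation marker that encodes Ki-67, was at 683, 462, 476 and 465 CPM at P1 and 253, 256, 267 and 327 CPM at P5 (-0.92 ± 0.22, adjusted p = 0.003). Top2a, the topoisomerase that untangles chromosomes, was at 482, 363, 364 and 359 CPM at P1 and 188, 197, 211 and 238 CPM at P5 (-0.91 ± 0.17, adjusted p = 2.2e-04), and P1 replicate 1 was highest in both. Rrm2, a subunit of ribonucleotide reductase, fell most and was at 83.6, 75.8, 75.5 and 77.4 CPM at P1 and 34.0, 30, 34.6 and 40.1 CPM at P5 (-1.17 ± 0.16, adjusted p = 7.2e-06), and Ccne1, the cyclin of S phase entry, changed by -1.04 ± 0.20, adjusted p = 4.0e-04. Without P1 replicate 1 29 of the 34 fell, with library size scaling all 34 fell and 15 were called, and without P5 replicate 4 5 were called. Among inhibitors of the cycle Cdkn1a, which encodes p21, moved the other way from Cdkn1c: it was at 178, 189, 183 and 191 CPM at P1 and 360, 346, 335 and 353 CPM at P5 (0.91 ± 0.13, adjusted p = 1.3e-05), and Rbl1, a pocket protein of dividing cells, fell (-0.68). Of 15 oncofetal RNA-binding and chromatin genes 7 [7 to 11] fell and 1 [0 to 1] rose (median -0.43). Igf2bp1, an RNA-binding protein of fetal tissue, was at 6.67, 7.41, 8.24 and 7.01 CPM at P1 and 2.83, 1.57, 1.92 and 1.76 CPM at P5 (-1.86 ± 0.24, adjusted p = 2.5e-06). Dnmt3a, a de novo DNA methyltransferase, was the rise (0.31 ± 0.09, adjusted p = 0.020), and it was missed with library size scaling and without P1 replicate 1 or P5 replicate 2.

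The same letters were counted in the cell cycle genes. Of 28 cell cycle genes with a window 23 (82.1%) held a CCAAT in the 250 bases before a start, against 39.9% of tested genes, and 5 (17.9%) held TTTNNCGC, a form of the site of the E2F factors that drive S phase genes, against 7.71%. Among the myelin protein genes, 9 of 21 (42.9%) held a CCAAT and none held TTTNNCGC. The windows of Top2a (chr11:99024190-99024439, minus strand) and Mcm6 (chr1:128359706-128359955, minus strand), which encodes a subunit of the replicative helicase, are shown as above, with CCAAT and TTTNNCGC on either strand in capitals.
Top2a: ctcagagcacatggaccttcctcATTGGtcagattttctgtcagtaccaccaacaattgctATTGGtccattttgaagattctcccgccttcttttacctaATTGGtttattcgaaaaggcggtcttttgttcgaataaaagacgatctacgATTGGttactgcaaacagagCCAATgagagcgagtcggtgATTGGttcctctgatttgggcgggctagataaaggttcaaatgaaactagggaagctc
Mcm6: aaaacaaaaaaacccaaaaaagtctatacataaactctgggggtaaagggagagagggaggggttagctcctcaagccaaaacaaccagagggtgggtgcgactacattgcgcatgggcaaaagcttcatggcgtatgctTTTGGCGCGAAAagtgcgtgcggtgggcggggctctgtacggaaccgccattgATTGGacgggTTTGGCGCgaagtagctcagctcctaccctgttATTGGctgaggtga
Mcm6 was at 109, 95.2, 94.5 and 87.7 CPM at P1 and 59.7, 54.4, 61.2 and 70.7 CPM at P5 (-0.65 ± 0.13, adjusted p = 7.1e-04). Its window held 2 CCAAT boxes and 3 matches to TTTNNCGC, of which 2 overlap on opposite strands in the same stretch. That of Top2a held 6 CCAAT boxes and no TTTNNCGC.

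**Figure D3:**
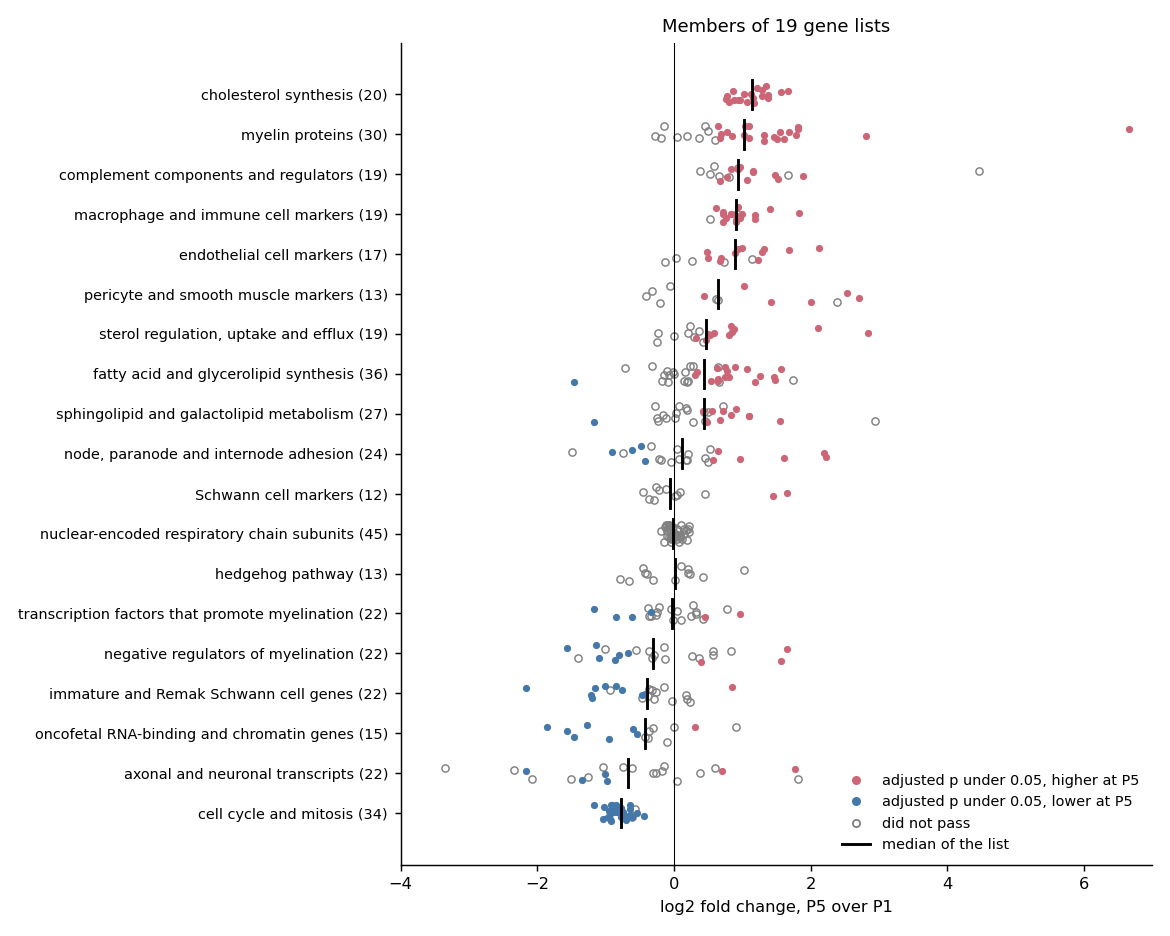
Log2 fold change of P5 over P1 of each tested member of 19 gene lists (number tested in brackets), filled where the adjusted p was under 0.05 and open otherwise, with the median of each list as a bar. Medians run from 1.14 for cholesterol synthesis to -0.78 for the cell cycle, and the 45 respiratory chain genes lie close to 0.

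The signals between axon and Schwann cell were counted by pathway, against 10.3% of all genes that rose and 7.33% that fell. Cntf, a cytokine that keeps motor neurons alive and is made by myelinating Schwann cells, was at 8.67, 9.78, 5.43 and 8.28 CPM at P1 and 69.7, 72.4, 73.9 and 74.1 CPM at P5 (3.17 ± 0.14, adjusted p = 1.4e-14), and part of it overlaps Zfp91 on the same strand. Ntrk3, the receptor of neurotrophin 3, fell (-1.02 ± 0.14, adjusted p = 5.5e-06), and Sort1, which sorts neurotrophins, rose (0.25), which was missed without any 1 of 7 libraries, P1 replicate 1 among them. Of the GDNF family, Gfra1, the receptor of GDNF, was at 61.6, 61.0, 53.4 and 66.1 CPM at P1 and 161, 146, 147 and 165 CPM at P5 (1.36 ± 0.09, adjusted p = 1.3e-11), opposite to Gfra3. For 16 genes of neuregulin and ErbB signalling, the axonal signal that sets myelin thickness, 2 [1 to 4] rose and none [0 to 3] fell. These were Erbb4 (2.11 ± 0.28, adjusted p = 3.6e-06) and Bace1, a protease that cuts neuregulin (0.26), of which Bace1 was missed with library size scaling and without P1 replicate 2 or P5 replicates 1 or 3, while Erbb3, the receptor through which Schwann cells read neuregulin, was at 919 ± 14.8 and 745 ± 38.9 CPM (-0.30 ± 0.14, adjusted p = 0.148) and passed as a fall in 5 of the 18 alternative settings. Of 16 genes around the receptor Adgrg6, Lgi4 and cAMP, 2 [1 to 4] rose and 3 [2 to 7] fell, with Adam23, a receptor of Lgi proteins, as the largest fall (-1.08 ± 0.13, adjusted p = 1.2e-06). Among the other changes there were the phosphodiesterase gene Pde4b (-0.76) and the adenylyl cyclase gene Adcy9 (0.58), and with library size scaling 7 of the 16 fell and 1 rose.

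The counts of this paragraph stand against the same shares of all genes tested, 10.3% higher and 7.33% lower. No member of 13 hedgehog pathway genes passed (rises [0 to 1], falls [0 to 2]), and 1 rose without P1 replicate 3 and 1 fell with library size scaling. The Schwann cell ligand Dhh was at 264, 313, 300 and 312 CPM at P1 and 316, 297, 335 and 328 CPM at P5 (0.10 ± 0.15, adjusted p = 0.727), and the receptor gene Ptch1, which the signal itself induces in perineurial cells, changed by -0.40 ± 0.21, adjusted p = 0.211. In the Notch pathway 1 [1 to 5] of 19 rose, Notch2 (0.66), and 2 [2 to 4] fell, the ligand gene Jag1 (-1.19 ± 0.25, adjusted p = 0.001) and Hes1, with 4 falls under library size scaling and 2 rises without P1 replicate 3 or P5 replicates 2 or 4. Of 11 secreted Wnt antagonists 2 [2 to 3] rose, Frzb and Dkk3 (1.21 ± 0.10, adjusted p = 5.2e-10), and 2 [1 to 3] fell, of which Sostdc1 reached 1 CPM (-0.66 ± 0.13, adjusted p = 6.8e-04) and the other, Wif1, did not and is named after its values were seen. It had 7 to 15 counts in the P1 libraries and 0 to 3 counts in the P5 libraries, at least 2.82-fold lower when set against 3 counts in the shallowest P5 library, and its fall was missed without P1 replicate 4 or P5 replicates 2, 3 or 4. Wnt ligands, receptors and targets fell in 5 [3 to 11] of 26 cases, among them Lgr5, a receptor of R-spondins (-1.05 ± 0.19, adjusted p = 2.2e-04), and Wnt6 (-0.79), and rose in 3 [2 to 4], of which Rspo1 reached 1 CPM (2.04 ± 0.35, adjusted p = 1.1e-04) and changed by 2.75 without P1 replicate 3. With library size scaling 11 of the Wnt genes fell, and without P1 replicate 2, P1 replicate 4 or P5 replicate 2 the count was 3. TGF-beta family members rose in 4 [3 to 6] of 26 cases, with Gdf10 (2.43, missed without P1 replicates 1 or 4 or P5 replicate 3, at 1.09 without the last) and Bmp7 (1.73 ± 0.15, adjusted p = 3.0e-09) as the largest, and Tgfbr3, the betaglycan co-receptor, fell (-0.65 ± 0.15, adjusted p = 0.002). The called TGF-beta rises were 2 in place of 4 with library size scaling and without P1 replicate 1 or P1 replicate 4. Htra1, a secreted protease listed with the IGF binding proteins, was at 8.27, 6.45, 5.72 and 6.23 CPM at P1 and 25.2, 23.0, 29.2 and 28.2 CPM at P5 (1.98 ± 0.15, adjusted p = 3.0e-10), and Igfbp7 rose by 0.55, which was missed without P1 replicate 2, with library size scaling and after the GC trend was removed. In the YAP and TAZ group 1 [0 to 2] rose, Tead4 (0.80), which was missed without any 1 of the 8 libraries and with library size scaling, and 3 [1 to 7] of 15 genes fell, with Tead2 (-0.50, missed without P1 replicates 2 or 3 or P5 replicates 2 or 4) and Wwtr1 (-0.45) lowest. Those falls were 7 with library size scaling and 1 without P1 replicate 3 or without P5 replicate 2.

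Of 36 collagen genes 4 [3 to 10] rose and 3 [3 to 10] fell, which is near the shares of all genes tested (10.3% and 7.33%), and 7 fell with library size scaling. Col23a1 and Col8a2 (0.99) rose, Col4a6 (-1.11) and Col11a1 (-0.99 ± 0.19, adjusted p = 5.1e-04) fell, and the abundant fibrillar chain Col3a1 was at 9104, 10486, 11808 and 12030 CPM at P1 and 9300, 9155, 9984 and 7664 CPM at P5 (-0.27 ± 0.20, adjusted p = 0.418) with overlap between the stages. Of 28 laminin, integrin and basal lamina genes 6 [3 to 7] rose and 2 [2 to 7] fell. Lama5 (1.41 ± 0.26, adjusted p = 2.7e-04) and Lama3 (0.96) rose, while Lama4, a laminin chain of early basal lamina, fell from 1476 ± 75.8 to 1065 ± 68.0 CPM (-0.47 ± 0.12, adjusted p = 0.006) and Nid2 by 0.50 on the log2 scale, with 6 falls under library size scaling. The 6 rises were 3 with library size scaling and without P1 replicate 1 or any single P5 replicate. Small leucine-rich proteoglycans rose in 3 [1 to 6] of 13 cases, with Ogn, which encodes osteoglycin, at 242, 227, 194 and 220 CPM at P1 and 628, 751, 659 and 794 CPM at P5 (1.68 ± 0.34, adjusted p = 6.6e-04), and Fmod at 1.06 ± 0.922 and 4.72 ± 0.933 CPM (2.15). The 3 rises were 1 without P1 replicate 1 or P1 replicate 4, where Fmod was missed (1.95, adjusted p = 0.053 without P1 replicate 1), as it was with limma-voom, and without P1 replicate 3 the change of Fmod was 2.96. Kera, which encodes keratocan, fell (-2.55 ± 0.42, adjusted p = 1.1e-04). Tnxb, a tenascin of loose connective tissue, rose and was at 18.3, 26.4, 52.0 and 35.4 CPM at P1 and 161, 146, 179 and 107 CPM at P5 (2.17 ± 0.22, adjusted p = 5.8e-08), and Tnc, the tenascin of growing tissue, fell (-1.15 ± 0.19, adjusted p = 6.0e-05), so that these 2 related genes moved in opposite directions. Adamts5 fell (-0.50), which was missed without P5 replicates 1 or 3 or P1 replicate 1 (-0.46, adjusted p = 0.074 without the latter). Elastin (Eln) was at 9.91, 9.95, 46.8 and 11.9 CPM at P1 and 19.2, 46.9, 373 and 36.7 CPM at P5 (2.6 ± 0.69, adjusted p = 0.009), and P5 replicate 3 held the most. Of these 33 elastic fibre and matrix-modifying genes 3 [2 to 8] rose and 3 [2 to 9] fell, 5 rose without P1 replicate 3, and 7 fell with library size scaling.

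P5 replicate 3 was also the highest library for smooth muscle genes. Acta2, smooth muscle actin, was at 3.83, 5.24, 6.23 and 5.68 CPM at P1 and 18.0, 23.7, 74.5 and 21 CPM at P5 (2.70 ± 0.50, adjusted p = 2.7e-04), and Myh11, smooth muscle myosin, at 2.66, 2.96, 2.70 and 2.88 CPM at P1 and 6.0, 11.1, 35.7 and 12 CPM at P5 (2.53 ± 0.45, adjusted p = 1.7e-04). Without P5 replicate 3 the changes were 1.99 (adjusted p = 0.003) for Acta2 and 1.80 (adjusted p = 0.002) for Myh11. The pericyte and smooth muscle list rose in 6 [5 to 8] of 13 cases (median 0.64), and its summed level was 956 to 1085 CPM at P1 and 995 to 1138 CPM at P5. The part of this library in the elastin result was not tested beyond leaving it out, which gave a change of 0.81 for Eln (adjusted p = 0.352), and without P1 replicate 3 the change was 3.48. Endothelial markers rose in 12 [8 to 14] of 17 cases (median 0.89), from a sum of 265 to 311 CPM to 479 to 545 CPM. Mfsd2a, a lipid transporter of barrier vessels, was at 15.2, 16.6, 16.7 and 18.7 CPM at P1 and 76.2, 73.6, 67.7 and 75.8 CPM at P5 (2.12 ± 0.18, adjusted p = 2.3e-09), and Vwf, von Willebrand factor, at 12.9, 18.1, 20.1 and 23.6 CPM at P1 and 53.5, 60.3, 73.6 and 51.6 CPM at P5 (1.68 ± 0.21, adjusted p = 1.4e-06). Their sums did not overlap between the stages, and the called members were 8 in place of 5 without P1 replicate 3.

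Macrophage and immune markers rose in 17 [13 to 19] of 19 cases with none lower (median 0.91), from 214 to 254 CPM in sum at P1 to 409 to 472 CPM at P5. Lyz2, lysozyme of macrophages, was at 18.1, 14.6, 16.3 and 16.8 CPM at P1 and 43.0, 42.0, 42.3 and 47.4 CPM at P5 (1.41 ± 0.16, adjusted p = 3.7e-07). Cd163, a scavenger receptor of resident macrophages, was at 0.546, 0.166, 1.57 and 0.248 CPM at P1 and 2.46, 1.37, 3.81 and 1.54 CPM at P5 (1.83 ± 0.48, adjusted p = 0.007), with overlap between the stages through P1 replicate 3. Leaving that library out gave a change of 2.78 for Cd163 (adjusted p = 3.1e-04). The called members were 4 [2 to 11], with 2 with library size scaling, 11 without P1 replicate 4 and 7 without P5 replicate 4. Complement genes rose in 11 [6 to 14] of 19 cases (median 0.93), among them Cd55, which protects cells from complement (1.89 ± 0.28, adjusted p = 1.3e-05). The 11 rises were 7 with library size scaling and without P1 replicate 2 or P5 replicate 3, and 6 without P1 replicate 1. H2-K1, a class I antigen molecule (0.67), and Ifi27 (0.63) were the largest of 4 [2 to 7] rises among 21 genes of antigen presentation and the interferon response, of which 2 rose with library size scaling. Among 6 mast cell markers Kit fell (-0.75) and no member [0 to 4] rose, although the median was 1.56. With the replicate block 4 of the 6 rose, all of them called, 2 rose without P1 replicate 3, and 1 rose without P5 replicate 2 and after the GC trend was removed.

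Few markers of muscle, epidermis, blood and cartilage, tissues that a dissection could bring along, passed the test. The adipocyte genes given above differ, with 4 [1 to 6] of 11 tested members higher. At levels as low as those of muscle and epidermis a missed test does not show that nothing changed. Skeletal muscle genes summed to 2.30 to 4.99 CPM at P1 and 3.12 to 4.99 CPM at P5, with none of 12 passing, and epidermal genes summed to 3.01 to 4.52 CPM over all 8 libraries, with none of 4 passing. Blood cell genes summed to 59.3 to 177 CPM at P1 and 65.5 to 345 CPM at P5, and the 1 [1 to 2] member that fell was the embryonic globin gene Hbb-y (2.46 ± 1.25 to 0.169 ± 0.0829 CPM, -3.87 ± 0.73, adjusted p = 3.5e-04). Of 8 cartilage genes 1 [1 to 3] rose, Cnmd (1.36). No perineurial marker of 11 passed, but this depended on the fit, with 2 rises and 4 falls with the P1 and P5 libraries alone or with the replicate block. Of the epineurial markers Clec3b (1.96, missed without P1 replicates 1, 2 or 4 or P5 replicate 3) and Ly6a (1.73 ± 0.29, adjusted p = 7.1e-05) were the largest of 3 [2 to 6] rises and Ugdh fell (-0.34). The fall of Ugdh was missed in 7 of the 18 alternative settings, 6 of them without 1 library (-0.26, adjusted p = 0.168 without P1 replicate 1). P1 replicate 3 held far more Clec3b than the other P1 libraries, and without it the change was 4.74 (adjusted p = 4.2e-07). Of 10 endoneurial markers 1 [0 to 3] rose, Apod (0.53), which was missed with library size scaling, and 1 [0 to 1] fell, Wif1, given above at low counts. Axons bring little RNA into the nerve. Of 22 axonal and neuronal transcripts 2 [1 to 3] rose and 4 [2 to 6] fell, against 10.3% and 7.33% of all genes tested. Their median was -0.68, and 6 of the 22 had a positive change. Their summed level was higher at P5, 319 to 347 CPM at P1 and 453 to 482 CPM at P5, and this difference lay mostly in Sncg. Sncg, gamma-synuclein, was at 32.8, 56.6, 45.3 and 59.1 CPM at P1 and 162, 168, 186 and 142 CPM at P5 (1.77 ± 0.21, adjusted p = 4.3e-07), and Uchl1 changed by 0.70, which was missed in 8 of the 18 alternative settings, 6 of them without 1 library (0.53, adjusted p = 0.152 without P1 replicate 1). The neurofilament gene Nefh was at 26.2, 34.0, 35.5 and 33.7 CPM at P1 and 14.1, 15.5, 15.7 and 19.2 CPM at P5 (-1.01 ± 0.17, adjusted p = 1.1e-04), and the sodium channel gene Scn9a changed by -1.35, which was missed without any 1 of the 8 libraries. The 4 falls were 2 without P1 replicate 3, P1 replicate 4 or P5 replicate 1, and the 2 rises were 1 with library size scaling and without P1 replicates 1, 2 or 3 or P5 replicates 2, 3 or 4.

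None of 45 nuclear-encoded respiratory chain genes passed (rises [0 to 1], falls [0 to 6], median -0.02), with Atp5b at 897 ± 8.06 and 836 ± 51.6 CPM and Atp5a1 at 617 ± 54.7 and 583 ± 27.4 CPM, although 6 fell with library size scaling. Of 25 ER chaperone and unfolded protein response genes 1 [0 to 7] fell, Manf (-0.30), which was missed without any 1 of 7 libraries, P1 replicate 1 among them, and 7 fell with library size scaling. Glycolytic genes rose in 5 of 28 cases, against 10.3% of all genes tested, led by Aldoc (1.59 ± 0.23, adjusted p = 9.9e-06) and Eno2 (0.79). They rose in 3 cases with library size scaling or without any of P1 replicates 1 and 2 and P5 replicates 1 and 3, and in 9 with the P1 and P5 libraries alone, 10 with the replicate block, 12 after the GC trend was removed and 13 with limma-voom or without the E13 libraries. Peroxisomal genes rose in 2 of 25 cases, among them Pex26 (0.63), and fell in 1, Pex2 (-0.30), which was missed without any 1 of 6 libraries, P1 replicate 1 among them. These counts were near the shares of all genes tested (10.3% and 7.33%). The rises were 4 with the replicate block, 5 with the P1 and P5 libraries alone, 7 without the E13 libraries, 8 after the GC trend was removed and 9 with limma-voom. Of all genes tested 12.3%, 13.9%, 16.7%, 16.8% and 18.8% rose under these settings, in the same order. The potassium channel gene Kcnk1 was at 12.3, 19, 12.1 and 18.1 CPM at P1 and 87.6, 96.1, 84.3 and 91.5 CPM at P5 (2.55 ± 0.18, adjusted p = 4.9e-11) and Kcnk6 rose by 0.65, while Kcnn4 (-1.18) and Kcnq5 (-0.74) were the largest of 3 [2 to 5] falls among 20 channel genes, with 5 falls under library size scaling. Kcnk6 was missed with library size scaling, without a low-count filter and without P1 replicates 2 or 4 or P5 replicate 1, and Kcnq5 without P1 replicate 1 (-0.59, adjusted p = 0.091) or P5 replicates 2 or 3. The channel genes that rose, 2 [1 to 5] of 20, were near the share of all genes tested (10.3%), and 7.33% of all genes fell. Guidance molecules moved in equal numbers, with 7 [7 to 12] rises and 7 [6 to 12] falls among 47, against 10.3% and 7.33% of all genes tested. Sema5a was at 84.7, 83.7, 58.4 and 88.2 CPM at P1 and 300, 308, 297 and 342 CPM at P5 (1.99 ± 0.27, adjusted p = 5.9e-06) and Ntn4 at 0.18 ± 0.116 and 1.30 ± 0.760 CPM (2.85), and the ephrin receptor genes Epha5 (-1.19 ± 0.21, adjusted p = 1.8e-04) and Epha7 (-1.0) fell.

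Genes that respond to hormones, to the time of day or to handling were also counted. Circadian genes rose in 6 [5 to 7] of 18 cases, with Dbp at 4.88, 7.49, 7.40 and 8.06 CPM at P1 and 20, 17.6, 18.0 and 14.3 CPM at P5 (1.33 ± 0.18, adjusted p = 6.6e-06). Of 15 glucocorticoid response genes 3 [2 to 4] rose, among them Glul, glutamine synthetase (54.3, 58.5, 60.6 and 71.5 CPM at P1 and 140, 142, 129 and 140 CPM at P5, 1.17 ± 0.11, adjusted p = 1.1e-08), and 1 [0 to 2] fell, Fkbp5 (-0.73), which was missed without P1 replicate 3 or P5 replicate 2. Immediate early genes fell in 3 [2 to 3] of 22 cases, including Nr4a1 (-1.07 ± 0.21, adjusted p = 5.4e-04) and Atf3 (-0.94), and rose in 4 [1 to 7], including Arc (1.25, missed without P1 replicate 2 or P5 replicate 1) and Klf2 (0.93). The 4 rises were 1 or 2 with library size scaling and without P1 replicates 1 or 2 or P5 replicates 1, 2 or 3. The hour of dissection is not given in the sources used here. Of 23 imprinted genes Cdkn1c and Grb10 fell (-0.53) and Sgce rose (0.43), which was missed with library size scaling and after the GC trend was removed. In place of 1 rise and 2 falls there were 6 and 6 with the P1 and P5 libraries alone, 5 and 6 with the replicate block and 5 and 7 with limma-voom.

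As shares of all counts, the 10 largest gains went from 3.12 ± 0.43% at P1 to 7.93 ± 0.236% at P5, with P1 libraries between 2.67% and 3.62% and P5 libraries between 7.67% and 8.15%. Mbp took 0.818 ± 0.258% and then 2.534 ± 0.221%, and Pmp22 0.813 ± 0.138% and then 2.489 ± 0.021%. The others were Scd2, Prx, Hmgcs1, Mal, Cd9, Ugt8a, Secisbp2l, which encodes a selenocysteine insertion protein (0.98 ± 0.18, adjusted p = 2.4e-04), and Gm42418, which was at 2035, 1247, 1228 and 1006 CPM at P1 and 1532, 7353, 3028 and 1908 CPM at P5 and did not pass (1.33 ± 0.62, adjusted p = 0.153). The 10 largest losses went from 3.67 ± 0.225% to 2.62 ± 0.103%. Of these, Col3a1 lost most, from 1.151 ± 0.132% to 0.834 ± 0.095%, and the laminin genes Lamb1, Lamc1, Lama2 and Lama4, the perlecan gene Hspg2, Postn and the elongation factor gene Eef1a1 were also in the group. A lost share is not the same as a fall after TMM scaling. Lamb1 (-0.28), Lamc1 (-0.29), Lama2 (-0.36), Hspg2 (-0.09), Postn (-0.72) and Eef1a1 (-0.10) did not pass the test. The 3 laminin genes among them passed as falls in 5 of the 18 alternative settings, at -0.28, -0.29 and -0.36 with the P1 and P5 libraries alone, and Postn did so there and with the replicate block. Sparcl1, which encodes hevin, did, at 1250, 1150, 1169 and 1122 CPM at P1 and 566, 564, 571 and 612 CPM at P5 (-1.02 ± 0.11, adjusted p = 2.0e-07), as did Ednrb, the endothelin receptor of glial precursors, at 1262, 1211, 1140 and 1019 CPM at P1 and 588, 681, 597 and 750 CPM at P5 (-0.82 ± 0.16, adjusted p = 5.4e-04).

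Levels at the other stages were set beside these calls. Of the 717 called higher at P5, 300 (41.8%) had their highest stage mean at P60, 146 (20.4%) at P24, 114 (15.9%) at P14 and 30 (4.18%) at P5, and 121 (16.9%) were highest at E13, where the libraries came from various nerves that had not been stripped. Of all genes tested, 21% were highest at P60, 7.99% at P24, 6.34% at P14, 4.98% at P5 and 32.4% at E13. With library size scaling 9.07% of the genes called higher were highest at P14 and 23.7% at E13, against 1.71% and 46.8% of all genes tested, and without the E13 libraries 7.81% were highest at P5, against 7.83%. Of the 316 called lower, 134 (42.4%) were highest at E17, 111 (35.1%) at E13 and 50 (15.8%) at P1, against 16.2%, 32.4% and 11.1% of all genes tested. The share of genes called higher with their highest mean at P5 and that of genes called lower at E13 were near those of all genes. The calls rest on the P1 and P5 means, so a gene called higher could not be highest at P1. Likewise a gene called lower could not be highest at P5. Part of the difference from all genes is therefore fixed by the calls. Without the E13 libraries 60.1% of the genes called lower were highest at E17, against 28.6% of all genes tested. Stages outside the comparison share no library with it. At P14 571 of the 717 genes called higher (79.6%) were at least 2-fold above E17, against 14.4% of all genes tested, and 4 (0.558%) were as far below. Of the 316 called lower 214 (67.7%) were at least 2-fold higher at E17 than at P14, against 10.2% of all genes tested.

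Single genes followed different courses. Mbp peaked at P14 with 51436 CPM after 1117 CPM at E17 and stood at 28304 CPM at P60, while Drp2 was still rising, from 3321 CPM at P14 to 7573 CPM at P60. Sptb went from 471 to 1019 CPM over the same span, and Hmgcs1 was highest at P14 with 4307 CPM. Mki67 was highest at E17 with 1011 CPM and at 61.6 CPM at P14. Hmga2 was at 2.80 CPM at P14. Sparcl1 had its lowest postnatal mean at P5, with 1038 CPM at P14 and 786 CPM at P60.

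**Figure D4:**
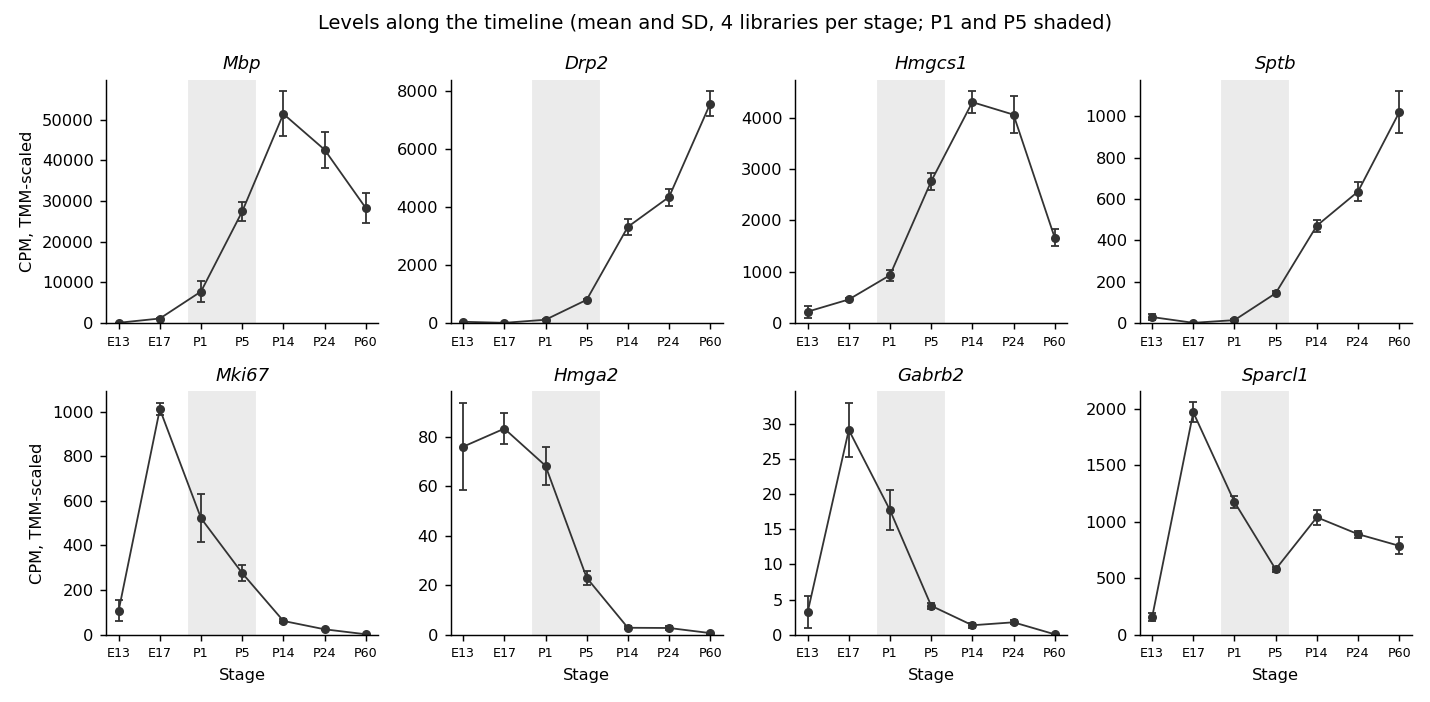
Mean CPM ± SD (n = 4 libraries) of 8 genes at each of the 7 stages, with P1 and P5 shaded. Mbp and Hmgcs1 peak at P14, Drp2 and Sptb rise to P60, Mki67, Hmga2 and Gabrb2 fall from E17 to P14, and Sparcl1 dips at P5.

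**Figure D5:**
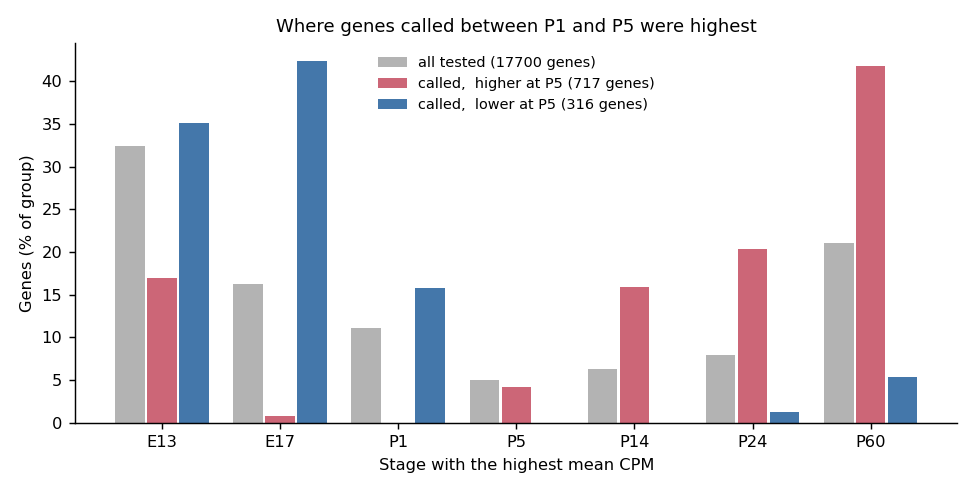
Share of genes (percent of each group) whose mean CPM was highest at each stage, for all genes tested (grey), genes called higher at P5 (red) and genes called lower (blue). Genes called higher were most often highest at P60 (41.8%) and genes called lower at E17 (42.4%).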

How the data were processed

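The authors sequenced poly-A selected, stranded libraries as single-end reads, and the deposited table holds raw read counts per gene for 28 libraries, without normalization. The submitters' processing notes name bcl2fastq, STAR 2.6.1c, featureCounts and the build GRCm38.p5, whereas the study's methods give a human build name, so that the mouse build of the notes was taken. The strand and multimapping settings of the counting are not given in the sources used here. All 28 columns matched a sample, and 41519 of the 41605 gene identifiers matched GENCODE M21, from which gene positions, GC content and exon overlaps were read.

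The members and gene lists were chosen with earlier results of these data known. Counts were tested with the edgeR 4.0.16 quasi-likelihood F test (R 4.3.3, limma 3.58.1) on all 28 libraries, which share 1 estimate of the spread, with stage as the term, TMM scaling and filterByExpr by stage (17700 genes kept, common dispersion 0.0439), and p-values were adjusted by Benjamini-Hochberg. The alternatives were DESeq2 1.42.0, its size factors, limma-voom, library size scaling, other count filters, P1 and P5 libraries alone, no E13 libraries, GC trend removal, a replicate block and leaving out each library. The scripts were tested on simulated data. Each postnatal library was 1 mouse, whereas the E13 and E17 libraries were pools of 2 embryos, so that the shared spread is one between mice and between pools.

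Genes were named by rule: the 10 largest rises and falls among called genes with at least 10 CPM in the higher stage, over 3 counts in both stages and no overlap between stages, all members of 4 short lists, up to 2 rises and 2 falls of each other list with at least 1 CPM, the 10 largest gains and losses of count share, and a few genes of the study. Folds against a stage with no library above 3 counts were set against 3 counts as a lower bound. Promoter windows of 250 bases came from RefSeq (GRCm38.p6). Some genes that the rule picks are not reported here, and stay in the fits, list counts and totals. The count shares leave out 1 of them.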

Additional observations from a re-analysis of the deposited data

Results flagged for a closer look

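A library was marked where its gap to the nearest of the other 3 of its stage took up more of the range of the 4 than Dixon's critical value allows. Of 492 groups of 4 libraries, 2 for each named gene, 38 held such a library, where chance flags about 1 in 20. Values are CPM, with the range of the other 3 libraries of the stage.

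In P1 replicate 1 the marked levels were Adamts5 147 (132 to 134), Atp5a1 535 (639 to 653), Cadm4 537 (1055 to 1131), Epha7 37.2 (25.8 to 26.4), Gal3st1 78.5 (164 to 181), Lama5 4.99 (8.78 to 8.95), Mki67 683 (462 to 476) and Top2a 482 (359 to 364). In P1 replicate 2 the marked levels were Elovl2 3.00 (1.68 to 1.71) and Tfap2a 0.791 (0.124 to 0.219). In P1 replicate 3 the marked levels were Clec3b 5.65 (0.125 to 0.341), Eln 46.8 (9.91 to 11.9), Fmod 2.44 (0.546 to 0.708), Nab2 85.9 (64.9 to 65.8), Rspo1 1.38 (0.328 to 0.499), Scd1 277 (330 to 338) and Sema5a 58.4 (83.7 to 88.2). In P1 replicate 4 the marked level was Hbb-y 4.34 (1.82 to 1.86). In P5 replicate 1 the marked levels were Arc 2.37 (0.984 to 1.17) and Jun 34.7 (25.5 to 26.9). In P5 replicate 2 the marked levels were Kcnn4 1.69 (2.54 to 2.65) and Tbx2 45.4 (52.9 to 53.9). In P5 replicate 3 the marked levels were Acta2 74.5 (18.0 to 23.7), Atp5a1 624 (568 to 573), Eln 373 (19.2 to 46.9), Epha7 12.1 (15.0 to 15.2), Erbb3 687 (761 to 769), Gdf10 3.93 (0.375 to 0.687), Glul 129 (140 to 142), H2-DMb1 34.8 (26.7 to 27.4) and Ntn4 2.44 (0.833 to 0.991). In P5 replicate 4 the marked levels were Col11a1 260 (282 to 285), Ebp 43.9 (47.0 to 47.4), Erbb4 17 (12 to 12.1), Kcna1 276 (241 to 246), Mvd 93.6 (126 to 132), Nr1h2 26.7 (36.7 to 38.5) and Sparcl1 612 (564 to 571).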

How the results depend on the processing

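Under 18 other settings the number of called genes ran from 866 to 1243. Without a minimum fold 3114 genes were called, 1816 higher and 1298 lower. Scaling by library size alone gave 609 genes called lower in place of 316 and 493 called higher. Leaving out each library gave 866 to 1015 called genes, 613 to 730 higher and 253 to 301 lower. The replicate numbers did not pair the libraries, with correlations of same-numbered deviations of -0.2, 0.15, 0.64 and -0.6, and P1 replicate 1 correlated best with P5 replicate 4. A replicate block on the 8 libraries gave 1055 called genes, 722 higher and 333 lower.

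Changes that reversed were all small. Cadm4 was at -0.15 with library size scaling, -0.11 with limma-voom and -0.14 to 0.14 with 1 library left out. Dhh was at -0.10, Egr2 at -0.10, Gjc3 at -0.01 and Sox10 at -0.14 with library size scaling, and Egr2 at -0.00, Nfatc3 at 0.02 and Sox10 at -0.06 with limma-voom. Hspg2 was at 0.00 with the replicate block. With 1 library left out Egr2 ran from -0.01 to 0.19, Hspg2 from -0.32 to 0.05, Nfatc3 from -0.05 to 0.05, Sox10 from -0.12 to 0.14 and Yy1 from -0.09 to 0.01. The cause was not tested.

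Of 246 named genes 37 passed but were missed under at least 1 of the 18 alternatives. The calls of Adamts5, Adipoq, Arc, Bace1, C4b, Clec3b, Cryab, Ctcf, Dnmt3a, Egr3, Eln, Fkbp5, Fmod, Gdf10, Igfbp7, Jun, Kcnk6, Kcnq5, Maf, Manf, Mvk, Ngfr, Pex2, Plin1, Plvap, Scn9a, Sort1, Sox8, Tead2, Tead4, Uchl1, Ugdh and Wif1 were missed without at least 1 of the 8 libraries, and those of Adcy9, Apod, Ifi27 and Sgce under other settings only, library size scaling among them. Of the named genes that did not pass, 28 passed under at least 1 alternative: Adgrg6, Cmtm5, Eef1a1, Erbb3, Etv1, Gal3st1, Gjc3, Hey1, Hey2, Id1, Id3, Lama2, Lamb1, Lamc1, Lgi4, Mag, Mpp6, Notch1, Nr1h2, Postn, Pou3f1, Ptch1, Sox2, Sox4, Srebf2, Tbx2, Tead1 and Zeb2. This was so for 19 with limma-voom, 16 without the E13 libraries, 13 each with the P1 and P5 libraries alone and with library size scaling, and 10 each with the replicate block and after the GC trend was removed. With 4 mice per stage, changes near the threshold and genes of a few counts are the least certain.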

Other observations

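Some members of the lists above were picked for this paragraph after their values were seen. Artn, which encodes artemin, the ligand of the receptor encoded by Gfra3, fell with its receptor, at 0.474, 0.333, 0.875 and 0.496 CPM at P1 and 0, 0.115, 0.0428 and 0.110 CPM at P5 (-2.83 ± 0.61, adjusted p = 0.001), although its level was low in both stages. Among fetal genes Igf2bp3 (-1.47) and Hells, a chromatin remodeller of dividing cells (-1.27), fell. Of the adhesion genes of immature Schwann cells Cdh2, which encodes N-cadherin, was at 51.9 ± 5.59 CPM at P1 and 25.8 ± 2.25 CPM at P5 (-1.01 ± 0.13, adjusted p = 2.1e-06), and Chl1, a relative of L1cam, at 137 ± 24.9 and 59.7 ± 7.78 CPM (-1.20 ± 0.30, adjusted p = 0.005). In vessels Sox17, an arterial factor (1.29), rose, as did the macrophage mannose receptor gene Mrc1 (1.19). Plvap, a protein of endothelial fenestrae, passed (1.3 ± 0.42, adjusted p = 0.028) but was missed with library size scaling, with limma-voom and without P1 replicates 1 or 2 or P5 replicate 3 (adjusted p = 0.096, 0.063 and 0.111). The complement gene C4b lay at the threshold (1.16 ± 0.41, adjusted p = 0.048) and was missed in 9 of the 18 alternative settings, among them without any 1 of P1 replicates 1, 2 and 4 and P5 replicates 1 and 3, and without P1 replicate 3 its change was 1.97 (adjusted p = 0.001).

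Long noncoding RNAs were also called. Of 576 tested lincRNA genes 25 were higher and 17 lower at P5, and of 448 tested antisense genes 27 were higher and 6 lower, against 627 and 266 of 15172 protein-coding genes. Whether reads of an antisense gene and of its partner were separated by strand is not stated in the sources used here.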
